A study of Gallus gallus with 41 samples.

Results

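The neurotransmitter receptors described here are those for glutamate, GABA and glycine in embryonic chick retina. They comprise all genes whose single symbol in the platform annotation names a subunit of a glutamate, GABA or glycine receptor: 40 genes, covered by 87 probe sets, of 13009 genes with a single symbol on the array. The probe set of highest mean over the 41 cells stands for each gene, and the symbol, not the signal, chose the genes. The 40 genes fall into 9 classes: 4 AMPA, 4 kainate, 4 NMDA, 1 delta and 6 metabotropic glutamate receptor genes, 12 GABA-A, 3 GABA-A rho and 1 GABA-B genes, and 5 glycine receptor genes.

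AMPA, kainate and NMDA receptors are cation channels opened by glutamate, and they carry most fast excitation between neurons. GABA-A and glycine receptors are chloride channels made of mixed subunits, which inhibit mature neurons and often depolarise embryonic ones. Metabotropic glutamate receptors and GABA-B receptors act through G proteins and tune transmitter release and excitability. In the retina, photoreceptors and bipolar cells release glutamate, horizontal cells release GABA, and amacrine cells release GABA or glycine. Ganglion cells receive their input from bipolar and amacrine cells.

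The study profiled 41 single cells of chick retina (Gallus gallus), with no treatment, culture or named strain, each on its own array. There were 6 cells from embryonic day 3 (E3), 3 from E4, 5 from E5, 10 from E6, a single cell from E7, 6 from E9, 8 from E14 and 2 from E15. Each cell was picked from papain-dissociated retina with a glass pipette, and its RNA was amplified over 35 PCR cycles from an oligo dT primer. The labels name no embryo, so the cells of an age count as 1 sample, an SD over cells describes their spread only, and differences between 2 ages have no replicate check. Values are log2 MAS5 signals with a floor of 5.0, which is the median over all values, and a cell at the floor is written as 5.0. Probe sets differ in how well they bind their targets, so levels were compared between cells for the same gene and not between genes.

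Detection of a gene meant a signal that reached the 80th percentile of its array, which 20% of all probe sets reach by construction. A strong signal was one at least 3 log2 units above that percentile, a limit chosen after the values had been seen. The median of an array ran from 3.90 to 5.50 on 35 arrays. On 6 arrays of high background, which held the 3 E4 cells, E6 replicate 7 and both E15 cells, it ran from 6.82 to 7.88, so moderate values there are weak evidence of a transcript. The title and the source name of E6 replicate 1 disagree, the source name giving E5, and the title was followed. The mean level of the ganglion cell markers (13 of 15 listed genes measured) lay between 10.51 and 12.3 in the E6 cells, 9.81 and 11.0 at E9, and 10.9 and 12.4 at E14, against 5.11 to 7.44 at E3. Progenitor and cell cycle markers (13 of 16) averaged 9.47 at E3, 13.1 at E4, 9.25 at E5, 8.12 at E6, 13.3 in the E7 cell, 7.65 at E9, 6.78 at E14 and 8.5 at E15. Age, the kind of cell picked and the array therefore cannot be told apart in what follows, and in particular receptor signals at E6, E9 and E14 are those of cells with high ganglion markers.

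A few receptor genes gave very high signals in a cell while most stayed near the floor. Strong signals were found for 16 of the 40 genes, in 106 of 1640 values of a gene in a cell (6.46%). Over all 13009 genes, each read from its highest probe set in the same way, the share was 14.5%. The 24 genes with no strong signal in any cell were GRIA1, GRIA4, GRIK4, GRIN2A, GRIN2B, GRIN3A, GRM2, GRM3, GRM5, GRM8, 9 of the 12 GABA-A genes, all 3 rho genes, GLRA1 and GLRB. By class, the share of values with a strong signal was 19.5% for AMPA, 12.8% for kainate, 3.05% for NMDA, 9.76% for delta, 4.07% for metabotropic, 0.813% for GABA-A, 0% for rho, 43.9% for GABA-B and 5.85% for glycine receptor genes. These shares depend on how well each probe set binds and do not rank the classes, of which delta and GABA-B are 1 gene each.

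**Figure D1:**
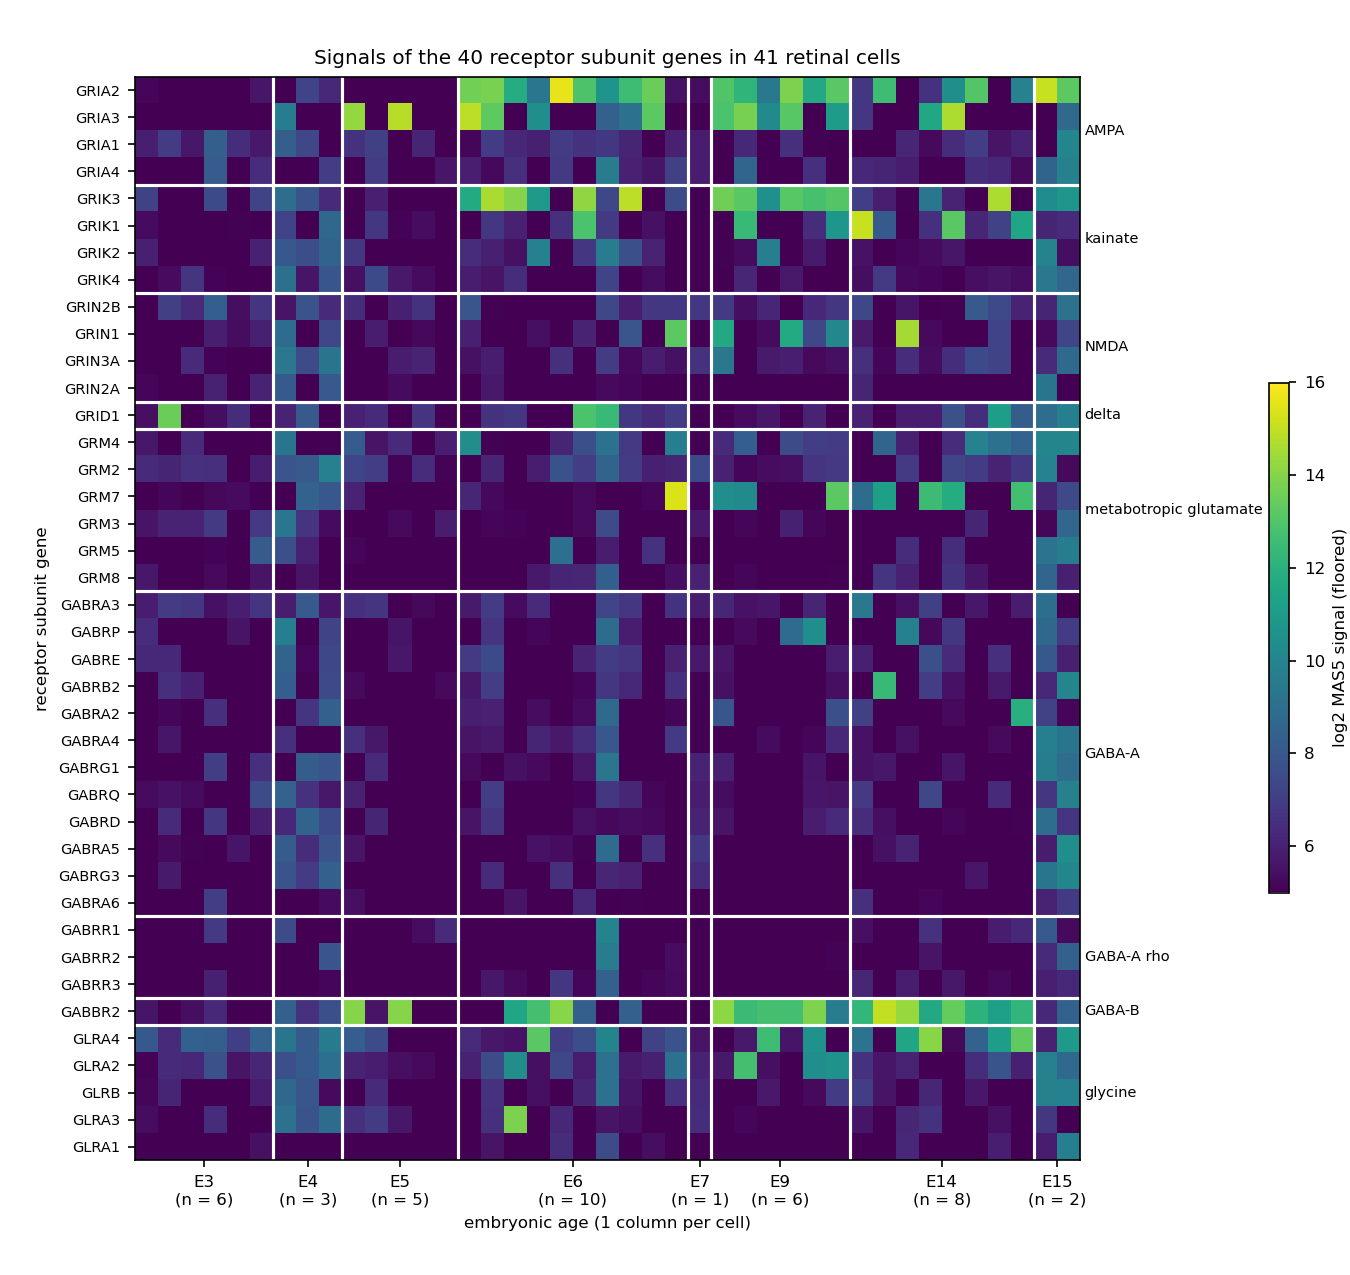
Log2 signals (floored) of the 40 receptor subunit genes in rows, by class, against the 41 cells in columns, by age; lighter colours are higher signals. Bright values sit in few rows, GRIA2, GRIA3, GRIK3, GRM7 and GABBR2 among them, mainly at E6, E9 and E14, while the columns of the 3 E4 and 2 E15 cells are raised in most rows.

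The number of receptor genes with a strong signal differed between ages. It was 1 gene in E3 replicate 2 and 0 in the other 5 E3 cells, 0 in all 3 E4 cells, 2 in each of 2 E5 cells and 0 in the other 3, and 0 in the E7 cell. E6 cells had 1 to 5 such genes (mean 3.0), E9 cells 5 to 7 (6.17), E14 cells 2 to 6 (4.0) and both E15 cells 1. All 6 E9 cells had at least 5, a number reached by 2 of the 10 E6 cells and by 2 of the 8 E14 cells. The share of all genes with a strong signal also moved with age, at 13.6% at E3, 9.62% at E4, 12.2% at E5, 15.1% at E6, 20.7% at E7, 20.1% at E9, 15.2% at E14 and 4.31% at E15. For the receptor genes it was 0.417% at E3, 0% at E4, 2.0% at E5, 7.5% at E6, 0% at E7, 15.4% at E9, 10% at E14 and 2.5% at E15, below the share of all genes at each age.

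The looser count of detected genes varied less among E3, E5, E6, E9 and E14. The mean number detected per cell was 6.33 ± 3.01 at E3 (SD over 6 cells), 3.67 ± 2.52 at E4 (3 cells), 7.4 ± 2.88 at E5 (5 cells), 7.4 ± 2.01 at E6 (10 cells), 8.67 ± 1.37 at E9 (6 cells), 9.13 ± 2.10 at E14 (8 cells) and 9.5 ± 0.71 at E15 (2 cells). The E7 cell had 1 detected receptor gene, GRM2. Over all cells the receptor genes were detected in 18.6% of values, against 29.6% for all genes read in the same way. The means of E3, E5, E6, E9 and E14 differed by less than 1 SD of the E3 cells. Counts of strong signals differed more between these ages, but their limit was chosen after the values had been seen. With detection at the 90th percentile, which 10% of all probe sets reach by construction, the mean number was 1.17 at E3 and 4.88 at E14. The share of all genes read in the same way was not computed at that limit, so no gain is read from these means.

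**Figure D2:**
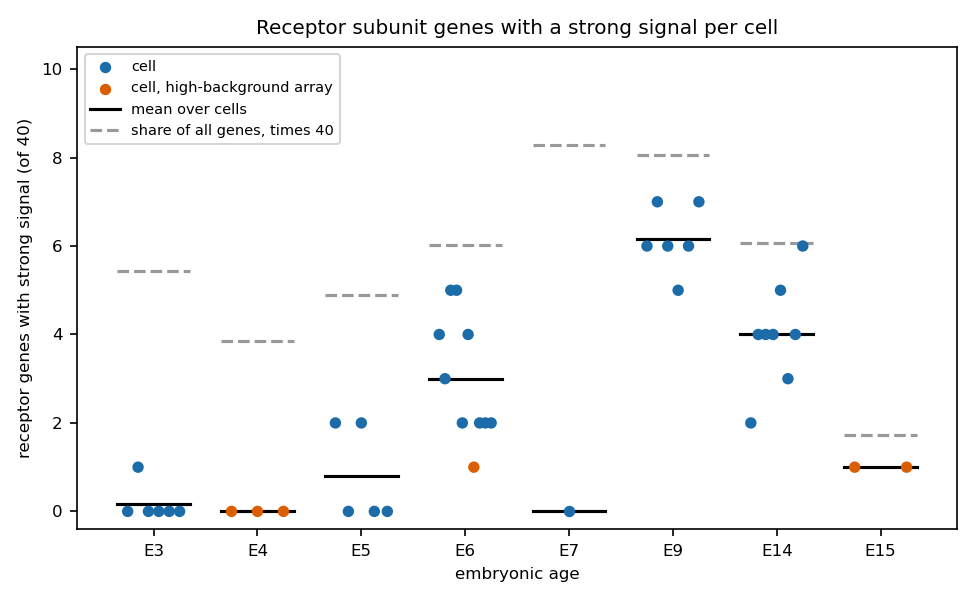
Number of the 40 receptor genes with a strong signal in each cell (points), by embryonic age, with the mean over cells (black) and the number that 40 genes would give at the share of all genes (dashed). The 6 E9 cells lie between 5 and 7, and the E3, E4 and E7 cells at 0 or 1.

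Among the AMPA receptor genes, GRIA2, whose subunit lowers the calcium permeability of AMPA receptors in mammals, was at or near the floor before E6 and high in most cells from E6. Its signal was 5.17, 5.0, 5.0, 5.0, 5.0 and 5.65 in the E3 cells, 5.0, 7.20 and 6.24 in the E4 cells, and 5.0 in all 5 E5 cells. In the 10 E6 cells it ran from 5.54 to 15.6 with a median of 12.8, in the 6 E9 cells from 9.41 to 13.84 with a median of 12.6, in the 8 E14 cells from 5.0 to 13.1 with a median of 8.33, and it was 15.1 and 13.2 in the E15 cells. Detection of GRIA2 reached 9 of 10 cells at E6 (exact Clopper-Pearson interval at the 95% level 55.5% to 99.7%), 6 of 6 at E9 (54.1% to 100%), 4 of 8 at E14 (15.7% to 84.3%) and both E15 cells, and in 0 of the 15 cells of E3, E4, E5 and E7. The 0 of 6 at E3 allows a share of up to 45.9%. These intervals take cells as independent, which the labels do not show, and cover counting error alone. The E14 cells split, 4 of them at 9.87 or more and 4 at 6.79 or less.

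The mean of GRIA2 was 11.95 ± 2.86 at E6, against 5.14 ± 0.26 at E3, a difference of 6.81 log2 units with no replicate check. Only the E6 cell with 5.54, replicate 10, fell within the range of the E3 cells. Between E14 and E9 the mean differed by -3.54, at 8.67 ± 3.25 in E14 cells, against 12.21 ± 1.58 in E9 cells, with overlapping cells.

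GRIA3, another pore-forming AMPA subunit, gave strong signals from E5, in part of the cells. It was at 5.0 in all 6 E3 cells, at 9.66, 5.0 and 5.0 in the E4 cells, and at 14.3, 5.0, 14.8, 5.0 and 5.0 in the E5 cells. At E6 it ran from 5.0 to 14.9 with a median of 8.74, at E9 from 5.0 to 13.7 with a median of 11.99, and at E14 from 5.0 to 14.6 with a median of 5.0. Each age from E5 to E14, apart from the single E7 cell at 5.0, held both cells at the floor and cells with a strong signal, so the ages overlapped. E5 replicates 1 and 3, where GRIA3 was strong, also had strong GABBR2.

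The means of GRIA3 differed by 3.93 between E6 (8.94 ± 3.91) and E3 (5.0, all cells at the floor), by 2.09 between E9 (11.02 ± 3.23) and E6, with 1.54 when E9 replicate 2 was left out and 3.29 when E9 replicate 5 was, and by -3.78 between E14 (7.24 ± 3.75) and E9. Its 2 other probe sets went the other way between E6 and E9, with means of 6.41 and 5.33 at E9, against 6.84 and 6.54 at E6. GRIA1 and GRIA4, which also form AMPA channels, were detected in 10 and 9 cells, in no age in over 3 cells, and reached at most 10.04 and 9.84, both on the high-background array of E15 replicate 3. Their medians at E3, E6, E9 and E14 stayed between 5.0 and 6.21.

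Of the kainate receptor genes, GRIK3 was high in part of the E6 cells and in every E9 cell. It was low at E3 and in most E14 cells, with detection in 3 of 6 E3 and 3 of 8 E14 cells. The E3 cells had 7.18, 5.0, 5.0, 7.47, 5.0 and 7.24, the E4 cells 8.94, 7.87 and 6.31, and the E5 cells 5.0, 5.98, 5.0, 5.0 and 5.0. It ran from 5.0 to 14.9 with a median of 11.3 at E6, from 10.51 to 13.6 with a median of 13.1 at E9, and from 5.0 to 14.6 with a median of 6.01 at E14, and was 10.4 and 10.8 in the E15 cells. The E9 cells were less spread than those of E6 or E14, and the E14 value of 14.6 came from a single cell, replicate 7, with the next cell at 9.33.

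The mean of GRIK3 was 10.53 ± 3.98 at E6, against 6.15 ± 1.26 at E3, and 12.72 ± 1.11 at E9, against that of E6, differences of 4.38 and 2.19, the second of which was 1.58 without E6 replicate 5. Between E14 and E9 it differed by -5.46, at 7.27 ± 3.31 in E14 cells, against 12.72 ± 1.11 in E9 cells. Of the 8 E14 cells, 7 lay below every E9 cell. No test is possible for these differences.

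GRIK1, which in mammals serves OFF bipolar cells, was high in single cells. It was at most 5.32 in the E3 cells, and at E5 had 5.0, 6.80, 5.11, 5.35 and 5.0. E6 replicate 6 had 12.9, with the other 9 E6 cells at 6.87 or less. At E9 it was 5.0, 12.4, 5.0, 5.0, 6.41 and 10.8, and at E14 it ran from 5.0 to 15.1 with a median of 7.62. Strong signals were thus seen in 1 of 10 E6, 2 of 6 E9 and 3 of 8 E14 cells, and the ages overlapped. GRIK2 was strong in E6 replicate 4 (9.84) and E9 replicate 3 (9.69) and detected in 7 cells in all. GRIK4, whose subunit needs a partner such as GRIK2 to form a channel, was detected in 4 cells and reached 9.38, on the array of E15 replicate 2.

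The obligatory NMDA receptor subunit, GRIN1, was strong in 5 cells. At E9 it had 11.6, 5.0, 5.33, 11.7, 7.34 and 10.1, E6 replicate 10 had 13.2 and E14 replicate 3 had 14.5. The other 9 E6 cells were at 7.92 or less, the other 7 E14 cells at 7.23 or less and all E3 cells at 5.96 or less, so the high values were exceptions outside E9. The mean was 8.53 ± 3.05 at E9, against 6.37 ± 2.58 at E6, a difference of 2.15, which was 1.51 without E9 replicate 4. GRIN2B, a glutamate-binding partner of GRIN1, was detected in 14 cells but was never strong and reached 9.14 on a high-background array. Its median was 6.48 in E3 cells, 5.48 in E6 cells, 6.20 in E9 cells and 5.85 in E14 cells, so no age stood out. GRIN3A, a glycine-binding subunit, was detected in 8 cells and GRIN2A in 0. GRIN1 and at least one GRIN2 gene were detected together in 3 cells, 1 each at E6, E9 and E14.

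GRID1 belongs to the delta receptors, which bind synaptic organiser proteins and are not opened by glutamate in the usual way. It was strong in E3 replicate 2 (13.5), E6 replicates 6 and 7 (12.9 and 12.4) and E14 replicate 7 (11.1). The other E3 cells were at 6.45 or less and all 6 E9 cells at 6.07 or less. Its detection was 6 of 10 at E6 (26.2% to 87.8%) and 0 of 6 at E9 (up to 45.9%), intervals that again take cells as independent. The mean was 5.35 ± 0.45 at E9, against 7.38 ± 2.89 at E6, a difference of -2.03, which was -1.41 without E6 replicate 6. The E3 cell with strong GRID1 was the single E3 cell with any strong receptor gene.

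**Figure D3:**
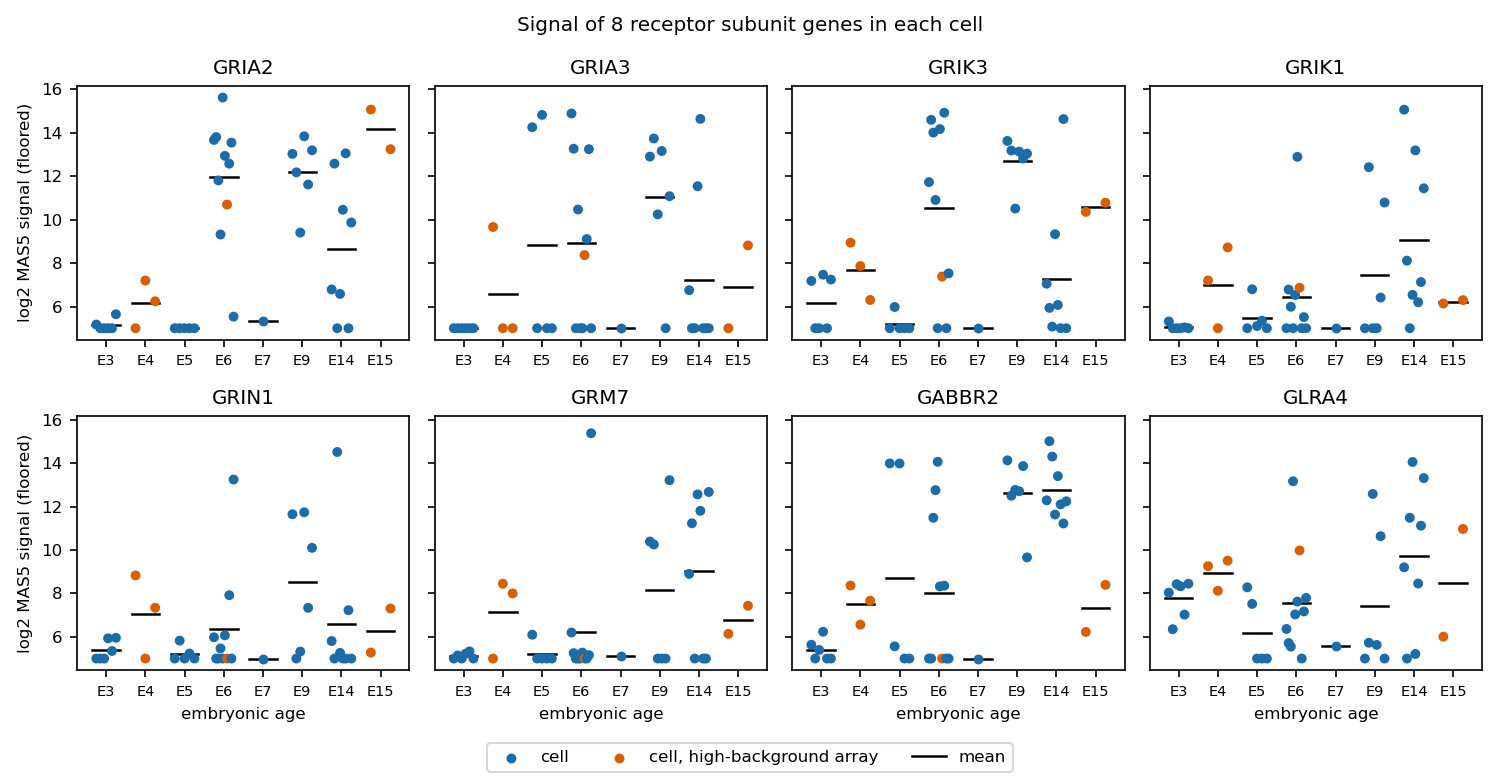
Log2 signal (floored) of 8 receptor subunit genes in each cell against embryonic age, with the mean as a black line and cells on high-background arrays in orange. GRIA2, GRIK3 and GABBR2 lie above 9 in all 6 E9 cells, while GRIK1, GRIN1, GRM7 and GLRA4 are high in some cells of an age and near the floor in others.

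Among the metabotropic glutamate receptors, GRM7, a presynaptic receptor that lowers transmitter release, stood out in single cells. The E3 cells lay between 5.0 and 5.33. E6 replicate 10 had 15.4, with the other 9 E6 cells at 6.20 or less. At E9 it was 10.4, 10.3, 5.0, 5.0, 5.0 and 13.2, and at E14 it was 8.90, 11.2, 5.0, 12.6, 11.8, 5.0, 5.0 and 12.7. Within E9 and within E14 the cells fell to either side of a wide gap, with 3 of 6 and 5 of 8 at 8.90 or more and the rest at the floor.

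GRM4, of the same presynaptic group, was detected in 18 cells and was strong in 2, E6 replicate 1 (10.4) and E14 replicate 6 (9.86). Its median was 5.0 in E3 cells, 6.47 in E6 cells, 6.99 in E9 cells and 7.45 in E14 cells, and the ranges of these ages overlapped. GRM2, an autoreceptor on glutamatergic terminals, was detected in 17 cells at modest levels, with medians of 6.22 in E3 cells, 6.14 in E6 cells, 5.73 in E9 cells and 6.42 in E14 cells, and of 8.07 on the high-background E4 arrays. GRM3, GRM5 and GRM8 were detected in 4, 3 and 2 cells.

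The GABA-B gene GABBR2 encodes the subunit that couples the receptor to its G protein and works paired with GABBR1, which is not analysed here. GABBR2 was low in all E3 cells, with 5.64, 5.0, 5.40, 6.24, 5.0 and 5.0, and at 8.37, 6.57 and 7.67 on the high-background E4 arrays. In the E5 cells it was 13.99, 5.57, 13.98, 5.0 and 5.0. E6 cells ran from 5.0 to 14.1 with a median of 6.66, E9 cells from 9.66 to 14.1 with a median of 12.7, and E14 cells from 11.2 to 15.0 with a median of 12.3. It was 6.23 and 8.40 in the E15 cells. Every E14 cell had a strong signal, as did 5 of 6 E9, 3 of 10 E6 and 2 of 5 E5 cells. GABBR2 was thus the one receptor gene strong in all 8 E14 cells, as GRIA2 and GRIK3 were in all 6 E9 cells.

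The mean of GABBR2 was 8.0 ± 3.60 at E6, against 5.38 ± 0.50 at E3, a difference of 2.62, which was 1.95 without E6 replicate 5. It was 12.61 ± 1.59 at E9, against 8.0 ± 3.60 at E6, a difference of 4.60. Between E14 (12.78 ± 1.33) and E9 it differed by 0.17, less than the spread over the cells of either age.

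Among the 12 GABA-A genes there were 4 strong values in 492, GABRP in E9 replicate 5 (10.47) and E14 replicate 3 (9.83), GABRB2 in E14 replicate 2 (12.4) and GABRA2 in E14 replicate 8 (11.9). GABRA3 was detected in 8 cells, more than any other gene of the class, with medians over the ages of at least 6 cells between 5.58 (E14) and 6.29 (E3). GABRP was detected in 7, GABRE in 6 and GABRB2 in 4. Most GABA-A receptors combine alpha and beta subunits. GABRB2 was the single beta gene among the 12, other beta genes are not analysed here, and it was detected with an alpha gene in 3 cells. Of the rho genes, which form slowly inactivating GABA receptors of bipolar cells, GABRR1 was detected in 3 cells, GABRR2 in 1 and GABRR3 in 0. The highest value of each rho gene, 9.97, 9.65 and 8.37, was on the array of E6 replicate 7, which had high background.

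Among the glycine receptor genes, GLRA4 and GLRA2 encode ligand-binding alpha subunits and were detected in 25 and 14 cells. GLRA4 was detected in all 6 E3 cells, where it had 8.04, 6.36, 8.43, 8.33, 7.03 and 8.45. At E6 it ran from 5.0 to 13.2 with a median of 7.11, at E9 it was 5.0, 5.73, 12.6, 5.63, 10.6 and 5.0, and at E14 it ran from 5.0 to 14.1 with a median of 10.2. Values were thus moderate and even at E3 and a mixture of high and floor values at E9 and E14, and the mean was 9.73 ± 3.40 at E14, against 7.43 ± 3.31 at E9, a difference of 2.30, which was 1.68 without E14 replicate 4. The 2 other probe sets of GLRA4 did not show this difference, with means of 7.52 and 7.02 at E14, against 7.39 and 7.27 at E9. GLRA2, the main alpha subunit of embryonic glycine receptors in rodents, was strong in E6 replicate 3 (10.4) and E9 replicates 2, 5 and 6 (12.7, 10.4 and 10.6). The 8 E14 cells had 7.85 or less, and the mean was 6.07 ± 0.93 at E14, against 8.33 ± 3.32 at E9, a difference of -2.26, which was -1.38 without E9 replicate 2. GLRA3 was strong in 1 cell, E6 replicate 3 (13.8). GLRB, the beta subunit that ties the receptor to gephyrin, was detected in 4 cells, in each together with an alpha gene, and was never strong. At least one alpha gene was detected in 31 cells.

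Overlaps of strong signals were counted for several pairs and were not compared with those that the counts within ages alone would give. GRIA2 and GRIK3 were strong together in 11 cells, 5 at E6 and 6 at E9, which is 57.9% of the 19 cells with strong GRIA2 and 84.6% of the 13 with strong GRIK3. The 6 at E9 were fixed, since each gene was strong in all 6 E9 cells. At E6, GRIA2 was strong in 7 and GRIK3 in 6 of the 10 cells. At E14, GRIA2 was strong in 4 cells and GRIK3 in 1, and these were different cells. GRIA2 and GABBR2 were strong together in 11 cells, GRIA3 and GABBR2 in 9, and GRIK1 and GRM7 in 4, the last of these being 66.7% of the 6 cells with strong GRIK1 and 50% of the 8 with strong GRM7. Of the 11 for GRIA2 and GABBR2, 2 were at E6, 5 at E9 and 4 at E14. The E9 and E14 counts were fixed, since GRIA2 was strong in all E9 cells and GABBR2 in all E14 cells. All 6 E9 cells shared strong GRIA2 and GRIK3, 5 of them also strong GABBR2. E6 replicate 10 differed from the other E6 cells in having strong GRIN1 and GRM7. Neither GRIA2 nor GRIK3 was strong in replicate 10 or in E6 replicate 7, whose array had high background. The ganglion marker mean of replicate 10, 10.51, was the lowest of the E6 cells, with replicate 4 next at 10.66.

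The E5 cells were of unlike kinds. Replicates 1, 2 and 3 had ganglion marker means of 11.5, 11.4 and 10.8, and replicates 4 and 5 had 5.18 and 5.77 with progenitor and cell cycle means of 11.98 and 11.2. Strong GABBR2 and GRIA3 were seen in replicates 1 and 3, and in neither replicate 2 nor replicates 4 and 5. In these 5 cells a high ganglion marker mean therefore came both with and without the strong receptor signals.

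Several receptor genes lie next to each other in the chicken genome, by their order in the RefSeq table of the assembly GRCg7b. GRIA2 neighbours GLRB, whose probe set was strong in 0 of the 41 cells, so strong signals of the pair could not coincide. Of the 4 cells with GLRB detected, 2 were the E15 cells, where GRIA2 was strong on high-background arrays. GABRA2 lies between GABRA4 and GABRG1, and strong GABRA2 in E14 replicate 8 came without a detected GABRA4 or GABRG1. GABRA3 lies between GABRQ and GABRE, GABRA5 beside GABRG3 and GABRR1 beside GABRR2. There were 0 strong values among these 7 genes, so whether strong signals of these neighbours coincide could not be seen.

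Other probe sets of the same genes bore out the strong signals to different degrees. For GABBR2, the second probe set was strong in the same 18 cells as the first, whereas 3 further probe sets were strong in 0, 1 and 1 cells. The second probe set of GRIA2 was detected in 12 of its 19 strong cells, that of GRIK3 in 8 of 13 and that of GRIA3 in 3 of 13. None of the 6 other probe sets of GRM7 was strong in any cell, and 1 was detected in 1 of the 8 strong cells. The 2 other probe sets of GRIK1 were detected in 0 of its 6 strong cells. For GLRA4, the 2 others were strong in 0 and 4 cells and detected in 4 and 6 of its 7 strong cells. The 3 other probe sets of GRID1 were strong in 0 cells and detected in 1, 0 and 0 of its 4 strong cells, and the other probe set of GABRA2 was detected in 0 of its 1 strong cell. GRIN1, GRIK2, GLRA2 and GLRA3 have 1 probe set each. Strong signals of GRM7, GRIK1, GRID1, GABRA2 and these 4 genes thus rest on 1 probe set each. The labels describe priming at the poly(A) tail, and the part that probe position plays in these differences was not tested.

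The one contrast with a test was the slope of the time-point means on embryonic day. Of the 40 genes, 29 passed the filter on low values and were tested. The 11 that failed it were GABRA5, GABRA6, GABRD, GABRG1, GABRG3, GABRQ, GABRR2, GABRR3, GLRA1, GRIN2A and GRM8. With limma and Benjamini-Hochberg adjustment over all 24917 tested probe sets, 0 receptor genes were called rising and 0 falling, where 0.132% of all tested probe sets were called rising and 0% falling. This background, like those of the differences and separations between ages below, takes all tested probe sets and not the highest of each gene. At an unadjusted limma p under 0.05, 4 of the 29 had a positive slope, against a background of 3.53%, and 0 a negative slope, against 1.17%. They were GABBR2 with 0.50 ± 0.15 log2 units per day (SE, limma adjusted p = 0.256), GRM7 with 0.29 ± 0.10 (adjusted p = 0.366), GRIK1 with 0.27 ± 0.09 (adjusted p = 0.402) and GRIA2 with 0.34 ± 0.17 (adjusted p = 1.0).

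Slopes were positive for 24 and negative for 5 of the tested receptor genes. Over all 24917 tested probe sets they were positive for 15276 and negative for 9641. The median slope of the tested receptor genes was 0.07 log2 units per day, beside 0.02 for all tested probe sets. The lowest among the receptor genes was that of GLRA3, at -0.07 ± 0.08. A straight line describes GRIA2, GRIA3 and GRIK3 poorly, since the means of all 3 were lower at E14 than at E9. Over the alternatives the slope of GRIA2 ran from 0.10, with the floor at the highest array background, to 0.88, without E14. The bipolar marker list (5 of 9 genes measured, GRIK1 among them) averaged 10.9 in the E15 cells, against 7.67 in the E14 cells. GRIK1 itself was detected in 0 of the E15 cells. Mean array medians also differed, at 7.86 for E15, against 4.77 for E14. Photoreceptor and microglia lists were higher at E15 too, at 9.44 against 6.13 and 8.40 against 5.53. Ganglion cell and oligodendrocyte lists were lower, at 8.89 against 11.4 and 6.92 against 7.09. The erythroid list (3 of 5) averaged 10.1 over the E3 cells (5.03 to 16.8), 8.11 over E4, 5.62 over E5, 5.86 over E6, 6.61 in the E7 cell, 5.95 over E9, 9.43 over E14 (6.25 to 12.2) and 11.2 over E15 (8.84 and 13.6). Refitted without the high-background arrays, the slopes of GRIK1, GRM7 and GLRA4 were at their highest, at 0.37, 0.38 and 0.24. Refitted without E15, that of GABBR2 was at its highest, at 0.65. Those of GRIA4, GRIK4, GLRA2 and GRM3 were then at their lowest, at -0.003, -0.04, -0.02 and -0.08. Either refit called 0 receptor genes. The part of the kind of cell picked in the slopes, and of erythroid transcripts in the comparisons with E3 and E14, was not tested.

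**Figure D4:**
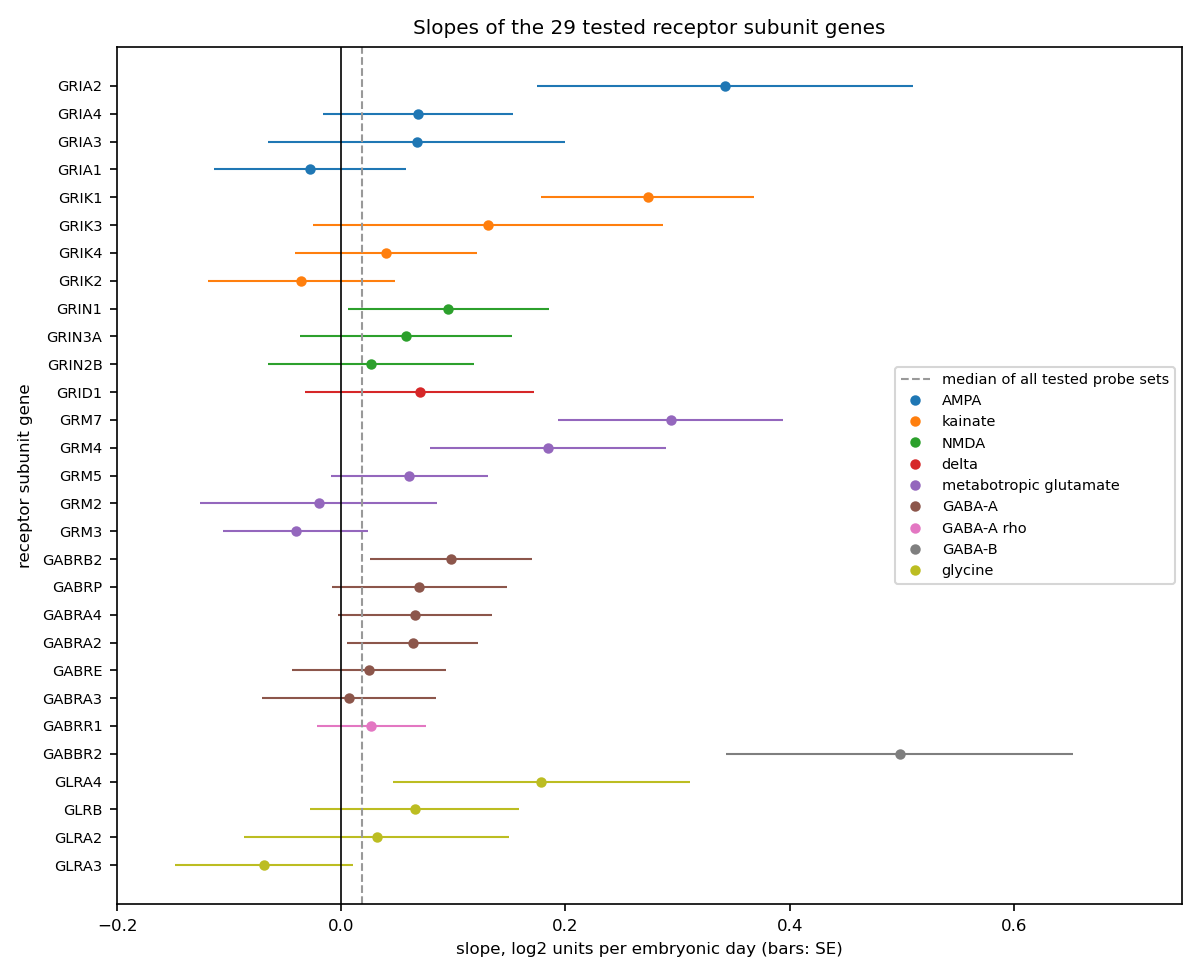
Slope per embryonic day (points) with its standard error (bars) for the 29 tested receptor genes, grouped and coloured by class, with 0 as a solid line and the median of all tested probe sets as a dashed line. GABBR2, GRIA2, GRM7 and GRIK1 lie farthest to the right, and no gene passed adjustment over all probe sets.

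The 3 steps between ages with at least 6 cells were described by differences of 2 log2 units or more. Between E6 and E3, 4 of the 29 tested receptor genes were higher by that much (GRIA2, GRIA3, GRIK3 and GABBR2), where 10.8% of all tested probe sets were, and 0 were lower, where 5.96% were. Between E9 and E6, 4 were higher (GRIA3, GRIK3, GRIN1 and GABBR2), where 5.68% of all were, and 1 was lower (GRID1), where 1.81% were. Between E14 and E9, 1 was higher (GLRA4), where 3.41% of all were, and 4 were lower (GRIA2, GRIA3, GRIK3 and GLRA2), where 10.1% were. As shares of the 29 genes, counts of 4 are 13.8% and counts of 1 are 3.45%. The shares for E6 over E3 and for E14 under E9 were near the background, and none of these counts was tested against it. A receptor gene was read from its highest probe set and the background from all tested probe sets, so the 2 are unlike. For strong signals, the share was 14.5% over all genes read from their highest probe set, against 8.14% over all probe sets. The count for E9 over E6 rested on single cells. It was 2 without E9 replicate 1 or without E6 replicate 5, and 5 without E9 replicate 3 or 5, and the share of all probe sets ran from 5.38% to 6.79%. The count of lower genes in that step, GRID1 alone, was 0 without E6 replicate 6 or 7 or E9 replicate 1, 4 or 6. The count for E14 over E9, GLRA4 alone, was 0 without E9 replicate 1 or 4 or E14 replicate 8, and 2 without E14 replicate 3 or 6. Several of the differences of E9 minus E6 lay within 2 log2 units without a single cell. That of GRIA3 did so (1.54 to 1.71) without E6 replicate 3, 5, 6 or 10 or E9 replicate 1, 2 or 4, that of GRIK3 (1.58 to 1.86) without E6 replicate 5, 7, 9 or 10, and that of GRIN1 (1.51 to 1.84) without E9 replicate 1, 4 or 6. For E14 minus E9 this held for GLRA2 (-1.38 to -1.84) without E9 replicate 2, 5 or 6 and for GLRA4 (1.68 to 1.96) without E9 replicate 1, 2, 4 or 6 or E14 replicate 4 or 8. With 1 cell left out, the count of E6 over E3 was 3 or 4, that of E6 under E3 was 0, and that of E14 under E9 ran from 3 to 5. The other probe sets of GRIA3 did not rise from E6 to E9, and those of GLRA4 did not rise by 2 log2 units from E9 to E14. The second probe set of GABBR2 averaged 5.0, 7.52 and 12.06 at E3, E6 and E9, while 3 further ones stayed between 5.0 and 6.62. For GRIA2 the second averaged 5.22, 8.49, 10.66 and 5.51 at E3, E6, E9 and E14. The third averaged 5.52, 6.58, 9.29 and 7.94, and the fourth 5.0, 6.49, 8.06 and 7.21. For GRIK3 the second averaged 5.0, 7.63, 9.72 and 5.33. The others of GRID1 did not fall by 2 log2 units from E6 to E9, nor those of GRIA3 from E9 to E14.

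In none of these 3 steps did the cells of the 2 ages separate fully for a receptor gene, where 0.75%, 0.00803% and 0.349% of all tested probe sets separated upward and 0.201%, 0.0562% and 0.562% downward. Ages further apart were compared only after the values had been seen. There, all E9 cells lay above all E3 cells for 3 tested receptor genes, GRIA2, GRIK3 and GABBR2. Of all tested probe sets, 2.25% did so. All E14 cells lay above all E3 cells for 1, GABBR2, where 0.638% did. The reverse order was seen for 0 receptor genes in both comparisons, where it was seen for 1.11% and 0.213% of all. The E3 arrays also differed from those of E6, E9 and E14 in the mean ACTB signal near the 3′ end minus that near the 5′ end. This was 1.95 ± 1.55 at E6, 1.27 ± 0.53 at E9 and 3.08 ± 0.80 at E14, against 6.65 ± 1.98 at E3. At E4 and E15 it was 5.07 ± 1.41 and 5.65 ± 2.39, within the range of the E3 cells. Its part in these differences, and in those of E6 minus E3, was not tested.

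Genes that make or carry these transmitters, or anchor their receptors, were read alongside. Of 16 measured genes for transmitter synthesis and transport 10 were tested, of 30 scaffold, auxiliary and anchoring genes 27, and of the chloride carriers both. None was called in the slope, and none had an unadjusted limma p under 0.05. Their median slopes were 0.01, 0.02 and -0.02 log2 units per day. In each group the genes detected in most cells are given here.

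CACNG4, which encodes an auxiliary AMPA receptor subunit of the TARP family, averaged 6.42 at E3, 5.84 at E4, 7.66 at E5, 12.26 at E6, 11.40 in the E7 cell, 12.21 at E9, 10.43 at E14 and 7.36 at E15. It was detected in 1 of 6 E3, 0 of 3 E4, 2 of 5 E5, 9 of 10 E6, 6 of 6 E9, 5 of 8 E14 and 0 of 2 E15 cells and in the E7 cell. NSF, an ATPase of vesicle fusion that also binds AMPA receptor subunits, was detected in 29 cells and averaged 9.49 in E3 cells, 10.89 in E6 cells, 11.86 in E9 cells and 12.47 in E14 cells. TRAK1, a motor adaptor linked to GABA-A receptor trafficking, was detected in 26 cells with age means between 6.58 and 8.65.

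SLC38A1, a glutamine carrier of neurons, averaged 7.96 in E3 cells, 12.28 in E6 cells, 12.96 in E9 cells and 8.82 in E14 cells. GLDC, of the glycine cleavage system, was detected in 3 of 6 E3, 2 of 3 E4, 1 of 5 E5, 4 of 10 E6, 4 of 6 E9, 0 of 8 E14 and 1 of 2 E15 cells and in the E7 cell. ABAT, which degrades GABA, was detected in 1 of 6 E3, 0 of 3 E4, 2 of 5 E5, 5 of 10 E6, 5 of 6 E9, 2 of 8 E14 and 0 of 2 E15 cells and not in the E7 cell. Lower signals at E14 than at E9 were common, by 2 log2 units or more in 10.1% of all tested probe sets. SLC12A5, the neuronal chloride exporter, was detected in 23 cells, including all 6 E3 cells, with age means between 6.18 and 8.28. SLC12A2, the chloride importer, was detected in 5 cells.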

How the data were processed

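The authors deposited log2 signals for 38535 probe sets on 41 arrays. The submitters' processing notes name MAS5 for them; the version is not stated there. Values ran from -4.27 to 22.37, and the trimmed mean of each array's linear signal was between 500 and 500.2, so no further scaling was applied. Each column carries its sample's own identifier, and the title gave age and replicate. Gene names come from the platform annotation: of its probe sets 27178 have a single symbol, 177 several (1 of these includes a receptor gene and was left out) and 11180 none. All 40 receptor gene IDs were found in the RefSeq table of GRCg7b. Control probe sets (96) did not enter.

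A probe set was tested if it reached the 80th percentile of the array in 3 cells or more. The 8 time-point means, weighted by cells, were fitted on day with limma 3.58.1 (lmFit, eBayes with trend) in R 4.3.3. P-values were adjusted by Benjamini-Hochberg over all tested probe sets, with calls under 0.05. Their error is the scatter of ages about a straight line, which may be technical, and rests on 77.8 prior against 6 residual degrees of freedom. The fit was run on simulated data, but the settings and outcome are not given here and no result rests on that run. Arrays give no depth, so the number of cells limits the precision. The design text speaks of 39 cells. Genes given in full were, per class, up to 4 in order of cells detected. Detection limits, floors, scalings, weights, probe set choice and left-out arrays, ages and cells were varied. Leaving each cell out of the differences between ages was added after seeing the data, as was the separation of E9 and E14 cells from E3 cells. The receptor genes, the gene lists and the tests were chosen with earlier results of these data known.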

Additional observations from a re-analysis of the deposited data

Results flagged for a closer look

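Dixon's ratio at the 95% level was applied to groups of 4 to 10 cells. It covered the counts per cell and the 16 genes with a strong signal, and marked 28 of 87 sets of values. Chance marks about 1 in 20 for normally distributed values, but that rate does not apply here. The 16 genes entered because at least 1 cell was strong, so marks were likely from the start. Many of these sets hold mostly cells at the floor of 5.0. Of the 28 marked values, 12 were strong signals. No explanation was tested.

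Strong signals far above the other cells of their age came from kainate, NMDA, delta, metabotropic, GABA-A and glycine receptor genes. E6 replicate 10 had 13.2 for GRIN1 and 15.4 for GRM7, with the next cells at 7.92 and 6.20. E6 replicate 6 had 12.9 for GRIK1 and E6 replicate 3 had 13.8 for GLRA3, with the next cells at 6.87 and 6.54. At E14, replicate 7 had 14.6 for GRIK3, replicate 3 had 14.5 for GRIN1 and 9.83 for GABRP, replicate 2 had 12.4 for GABRB2, and replicate 8 had 11.9 for GABRA2. At E3, GRID1 was 13.5 in replicate 2, which made it the E3 cell with 1 strongly signalling receptor gene, against 0 in the others. E9 replicate 3 had 9.69 for GRIK2.

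E9 replicate 3 was also low in 2 measures, with 6 receptor genes detected, against 9 to 10 in the other E9 cells, and a GRIK3 signal of 10.51, against 12.8 to 13.6. E9 replicate 6 had 9.66 for GABBR2, against 12.5 to 14.1.

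The other marked values were not strong, and were 6.80 or less or lay on the high-background array of E6 replicate 7. That array had 8.90 for GABRP and 8.82 for GABRA2. At E3, replicate 6 had 5.65 for GRIA2, replicate 1 had 5.32 for GRIK1, and replicate 4 had 6.52 for GABRA2 and 6.41 for GLRA3. At E5, replicate 2 had 5.98 for GRIK3, 6.80 for GRIK1 and 5.83 for GRIN1, replicate 1 had 6.78 for GRIK2 and 6.10 for GRM7, and replicate 3 had 5.61 for GABRP. Of these E5 values, those of GRIK1, GRIK2 and GABRP reached the detection limit. E9 replicate 2 had 5.19 for GLRA3.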

How the results depend on the processing

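The slope called 0 receptor genes in each of 59 alternatives, in which the calls over all tested probe sets ran from 0 to 107 rising; without E6 the whole table gave 107 rising and 14 falling, and with no floor, quantile scaling or equal weights 0. Of 261 differences between ages under alternatives, 12 moved by more than the spread over cells. A change of sign was counted only where the main difference was at least 2 log2 units in size, and 0 of those changed sign. With 1 cell left out, the counts of genes past 2 log2 units ran from 3 to 4 higher (E6 minus E3), 2 to 5 higher and 0 to 1 lower (E9 minus E6), and 0 to 2 higher and 3 to 5 lower (E14 minus E9). The mean number of receptor genes detected per cell depended on the limit, as follows, in the order E3, E4, E5, E6, E9, E14 and E15. At the 70th percentile it was 11.3, 9.0, 11.8, 13.2, 13.8, 14 and 13.5. At the 90th it was 1.17, 0, 1.6, 3.4, 4.67, 4.88 and 3.0, and 0 in the E7 cell. For strong signals it was 0.167, 0, 0.8, 3.0, 6.17, 4.0 and 1.0, and 0 in the E7 cell. With the mean of all probe sets of a gene it was 2.67 at E3, 1.0 at E4, 3.8 at E5, 0 at E7, 7.0 at E9, 6.0 at E14 and 4.5 at E15. With any probe set of a gene it was 6.67 at E4, 10.4 at E5 and 17.0 at E15. Above the array's own background it was 12.3 at E9 and 3.5 at E15. No paired analysis was possible because the replicate numbers only name cells of different ages, and an age is a single sample. Signal over background limits E4 and E15, whose arrays all had high background, and the number of cells limits E7 and E15.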
